A study of Rattus norvegicus with 6 samples.

Results

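Cycling microglia after infarction are the cells of 3 rat brain libraries that carry both a microglial gate and several transcripts of dividing cells. They were chosen from the infarction libraries in steps. A barcode needed at least 500 UMIs (unique molecular identifiers, each counting 1 captured transcript), at least 200 genes and at most 20% mitochondrial UMIs. It then needed at least 40 UMIs of C1qa, C1qb and C1qc together per 10000, fewer than 2 of the border macrophage genes Mrc1, Lyve1, Ms4a7 and Cxcl13, and a UMI of at least 3 of 6 cycling genes, Mki67, Top2a, Cdk1, Birc5, Ube2c and Cenpf. These steps gave 1087 cells, with 389, 389 and 309 in infarction libraries 1, 2 and 3, out of 3342 infarction microglia and 44011 deposited barcodes in all. The comparison cells are the 2255 infarction microglia below that count, with 394, 1227 and 634 per library. The same gates applied to the sham libraries left 3506 microglia below the count and 19 cells above it.

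The study profiled single cells from brain of Sprague Dawley rats, labelled postnatal day 21, in 3 sham libraries and 3 libraries after pontine infarction, a stroke of the brainstem. The protocol speaks of 3 rats with pontine infarction. The labels name no drug, transgene or allele, and they do not give the time between infarction and collection or what the sham procedure was. The series title speaks of pons, while the tissue field of each library reads brain. Nothing in the labels says whether a library is 1 rat or a pool, so the library is the unit of each test. Against sham, p-values measure the spread between libraries. Between classes of the same libraries, they set the class difference against its variation from library to library. In the fits of single genes this spread is estimated with information pooled over genes. Very small p-values there do not rest on the 3 libraries of 1 gene alone.

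Microglia are the resident macrophages of the brain. They hold their numbers by local division at a low rate and divide more after injury, with signals through the receptor encoded by Csf1r among the drivers. A cell that enters the cycle first switches on replication genes such as the Mcm helicase subunits, Pcna and cyclin E, and then the genes of mitosis, which include kinases (Cdk1, Plk1, Aurka), cyclin B and the machinery of the spindle. Many mitosis genes carry in their promoters a cell cycle homology element, TTTGAA or TTCGAA, beside CCAAT boxes bound by NF-Y, and are held down in resting cells by the DREAM complex.

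The rule genes themselves describe the chosen cells and test nothing. Mki67, which coats mitotic chromosomes, stood at 473, 362 and 419 CPM (its UMIs per 1000000 summed UMIs) in the 3 libraries of cycling cells, against 18.3, 25.8 and 16.4 in below-count infarction microglia and 0.719, 0.978 and 1.44 in sham microglia. Top2a, a topoisomerase that untangles chromosomes, stood at 345, 265 and 270.4 in cycling cells, and Birc5 (survivin, a subunit of the chromosomal passenger complex) at 223, 208 and 200. Cdk1 was the rule gene detected in the largest share of members, 92.8%, 88.4% and 89.3%, and Cenpf, a kinetochore protein, in the smallest, 59.1%, 48.8% and 53.4%. Members with exactly 3 of the 6 genes numbered 52, 108 and 74, and 71, 138 and 55 infarction microglia just outside the rule had 2. All 6 genes were detected in 165, 128 and 112 members. On the C1q gate, 12, 18 and 16 members held 40 to 50 C1q UMIs per 10000, and 7, 10 and 11 further cells with at least 3 cycling genes held 30 to 40.

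RefSeq's promoter table for GRCr8 held 5 of the 6 cycling genes. The 170 bases before each annotated start are shown because these genes define the cells. Capitals mark the cell cycle homology elements and CCAAT boxes named above, on either strand.
Mki67 (chr1:199952594-199952763, minus strand): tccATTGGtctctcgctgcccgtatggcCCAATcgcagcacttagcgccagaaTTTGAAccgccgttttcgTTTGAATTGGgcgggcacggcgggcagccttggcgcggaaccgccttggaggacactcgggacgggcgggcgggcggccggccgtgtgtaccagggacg
Top2a (chr10:84473094-84473263, minus strand): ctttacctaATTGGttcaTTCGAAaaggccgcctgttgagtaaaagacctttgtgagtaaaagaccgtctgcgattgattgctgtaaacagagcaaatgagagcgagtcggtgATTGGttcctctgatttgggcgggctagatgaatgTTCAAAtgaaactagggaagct
Cdk1 (chr20:19265123-19265292, plus strand): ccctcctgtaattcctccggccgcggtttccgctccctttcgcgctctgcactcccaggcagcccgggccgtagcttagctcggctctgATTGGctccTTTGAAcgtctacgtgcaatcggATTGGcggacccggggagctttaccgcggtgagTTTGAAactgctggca
Birc5 (chr10:103571976-103572145, plus strand): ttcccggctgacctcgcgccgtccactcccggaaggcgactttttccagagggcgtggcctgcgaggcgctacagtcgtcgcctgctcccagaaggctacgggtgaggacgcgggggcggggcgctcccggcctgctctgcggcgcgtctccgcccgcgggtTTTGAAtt
Cenpf (chr13:103760887-103761056, minus strand): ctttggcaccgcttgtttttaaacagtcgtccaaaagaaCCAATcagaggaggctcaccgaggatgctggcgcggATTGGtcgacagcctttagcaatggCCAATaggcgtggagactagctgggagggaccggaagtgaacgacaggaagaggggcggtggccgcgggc

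Over the 250 bases before the start, TTTGAA occurred 2 times in Mki67 and Cdk1 and 1 time in Top2a and Birc5, and TTCGAA 1 time in Top2a. In Cdk1 the TTTGAA copies begin 72 and 16 bases before the start, and in Birc5 the copy begins 8 bases before it. CCAAT occurred 4 times in Mki67 and Top2a, 3 times in Cdk1 and Cenpf and 1 time in Birc5. CCAAT read on the other strand is ATTGG. In Mki67 the TTTGAA copy 99 bases before the start overlaps an ATTGG by 1 base. Neither GGCGCGAA nor GGCGGGAA, letters of an E2F site, was found in the 5 windows. Of 33469 rat promoters of the same length, 17.4% held TTTGAA or TTCGAA, 34.0% CCAAT, 6.31% both kinds and 1.92% the E2F letters. A match is a run of letters and says nothing of binding.

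The microglial label was checked on genes that the rule did not use, with every cell thinned to 2000 UMIs, which left out 5, 24 and 12 shallower cycling cells. At least 1 UMI of P2ry12, Tmem119, Cx3cr1, Gpr34, Sall1, Siglech or Olfml3 was found in 48.7%, 51.2% and 50.8% of cycling cells. That share was 62.7%, 62.4% and 69.0% in below-count infarction microglia and 91.2% to 95.8% in sham microglia. In cells that should lack these genes it was 2.19% to 4.95% (infarction cells with neutrophil genes) and 1.92% to 4.08% (T cells), so the shares in microglia stand above that background. Neither reference holds macrophages, so infiltrating macrophages that pass the C1q gate are not told apart by it. Vcan was in 2.60% to 4.11% of cycling cells and 0% to 0.548% of sham microglia, and Ccr1 in 0% to 1.82% and 0% to 1.07%. Without thinning, 95.9%, 89.7% and 88.7% of cycling cells had such a UMI. Csf1r was detected in 83.1%, 84.4% and 82.5% of thinned cycling cells. Siglech and the border macrophage gene Cd163 were in none, but were also at or near 0 in sham microglia, and Pf4, another border macrophage gene, was in 4.43%, 6.58% and 7.07% of cycling cells and 5.34% to 10.7% of sham microglia. Cd3e, a T cell gene, was detected in none, and S100a9, a neutrophil gene, in 1.56%, 1.92% and 1.01%. Spp1 had a UMI in 21.8% to 51.9% of T cells and in 89.9% to 96.4% of cycling cells. Among the infarction cells with neutrophil genes, Spp1 was in 53.5% to 66.2% and Gpnmb in 80.2% to 82.8%. Gpnmb was in 9.18% to 20.7% of T cells, 44.8% to 45.8% of cycling cells and 0.822% to 1.31% of sham microglia. Whether the reference cells make these transcripts themselves or hold free RNA of other cells was not tested.

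Cycling cells were deeper than their neighbours. Their median was 20483, 14648 and 15028 UMIs per cell, against 8525, 3369 and 4646.5 in below-count cells of the same libraries. Detecting 3 of 6 genes is easier in a deep cell, and so is detecting 2 border macrophage genes, which drops a cell. Comparisons were repeated in cells of 5000 to 15000 UMIs in both arms (the depth band). They were also repeated in cells thinned to 2000 UMIs before any gate. Where the gate saw only thinned counts, cycling cells had still held a median of 20270, 14173 and 13230 UMIs before thinning, against 15329.5, 7783 and 8238 in the rest, and so more in 3 of 3 libraries. With the gate on thinned counts 195, 139 and 119 cells counted as cycling, while 384, 365 and 297 members held at least 2000 UMIs. Members that missed the count after thinning sat in the lower arm if they kept the microglial gate. Cells that the gate on full counts had dropped could also enter. Infarction library 1 held 815 gated microglia after thinning and 783 before. Thinned shares, folds and calls thus include cells outside the rule and compare less cleanly split classes. A doublet score above 0.25 was found in 2.57%, 5.66% and 2.59% of cycling cells and 3.55%, 2.44% and 2.37% of below-count cells. The median mitochondrial share was 7.51%, 7.61% and 7.99% in cycling and 6.69%, 7.69% and 7.30% in below-count cells. Library pairs shared 8 to 21 barcodes, none of them between cycling cells.

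The first comparison asked how much of the microglial pool was cycling with and without infarction. Cycling cells made up 49.7% of gated microglia in infarction library 1 (389 of 783, exact 95% binomial interval 46.1% to 53.2%), 24.1% in library 2 (389 of 1616, 22% to 26.2%) and 32.8% in library 3 (309 of 943, 29.8% to 35.9%). The sham libraries gave 0.654% (3 of 459), 0.253% (3 of 1185) and 0.691% (13 of 1881). All 3 infarction libraries lay above all 3 sham libraries, 35.5% ± 13 against 0.533% ± 0.243 (SD, n = 3 each), a difference of 35.0 percentage points (exact two-sided permutation test, p = 0.1, the smallest that 3 against 3 can give). The infarction shares themselves differed by more than their counting intervals.

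Depth changed the size of the share and not the order of the groups. In cells thinned to 2000 UMIs the shares were 23.9%, 11.2% and 14.1% after infarction and 1.26%, 0.205% and 0.533% in sham (difference 15.8 points, exact permutation p = 0.1). In the depth band they were 33.8%, 24.2% and 27.3% after infarction and 0%, 0.164% and 0.520% in sham (difference 28.2 points, p = 0.1 by the same exact permutation test). Sham library 1 had 0 of 232 cells there, which allows up to 1.58% (upper bound of the exact 95% interval). Intervals cover counting error only. Among all infarction cells with at least 3 of the 6 genes, 513, 519 and 428, the microglial gate held 75.8%, 75.0% and 72.2%. In sham, 22, 24 and 31 cells of any type had 3 of the 6 genes, and the gate held 13.6%, 12.5% and 41.9% of them.

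**Figure D1:**
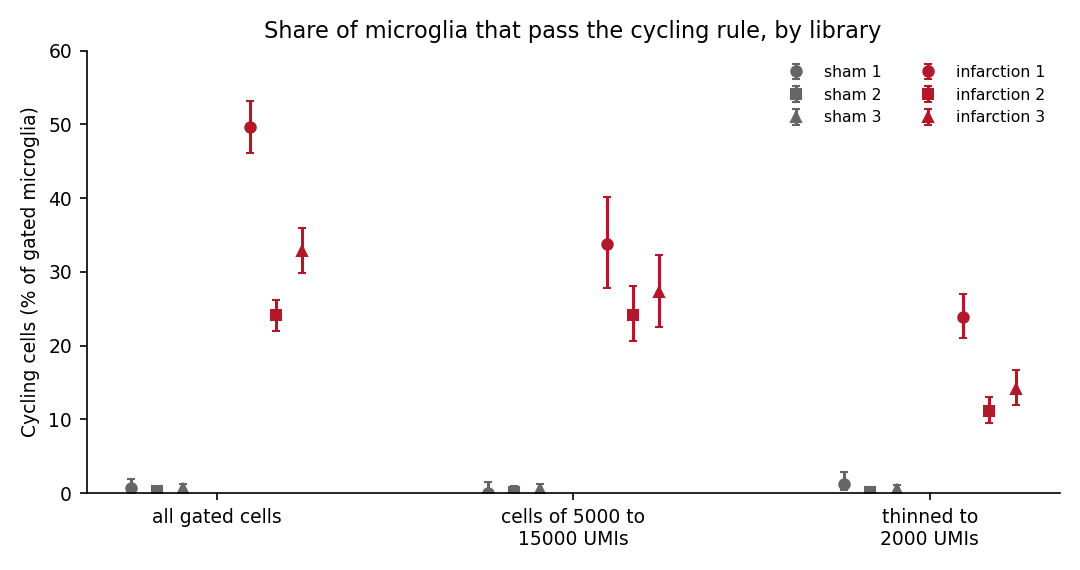
Share of gated microglia that pass the cycling rule (vertical axis, percent) in each library, as a point with its exact 95% binomial interval, for all gated cells, for cells of 5000 to 15000 UMIs and for cells thinned to 2000 UMIs. The 3 infarction libraries lie at 24.1% to 49.7%, 24.2% to 33.8% and 11.2% to 23.9%, above every sham library in each setting.

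Thinned members were sorted by 10 replication genes (Mcm2 to Mcm7, Cdc6, Gins2, Ccne2 and Clspn) and 7 mitosis genes (Ccnb1, Plk1, Cdc20, Aurka, Kif20a, Cenpe and Ccnf). A UMI of the replication genes alone was found in 36.7%, 41.6% and 39.1%, of the mitosis genes alone in 24.7%, 19.5% and 20.5%, of both in 24.7%, 23.6% and 27.9% and of neither in 13.8%, 15.3% and 12.5%. In below-count cells the replication genes alone were found in 48.4%, 45% and 39.8% and the mitosis genes alone in 4.66%, 6.10% and 7.71%. Sham microglia had neither in 72.8% to 76.6% and the mitosis genes alone in 14.7%, 11.2% and 15.5%, a background not far under the share in members. Aurka, one of these mitosis genes, stood at 42.6, 38.2 and 53.1 CPM in cells with 0 rule genes. The number of rule genes detected ordered the same 2 programmes. Mcm6, a subunit of the replicative helicase, stood at 106, 101 and 91.2 CPM in cells with 0 rule genes, at 188, 244 and 232 in cells with 2, and at 93.7, 109.6 and 143 in cells with all 6. Ccne2 (cyclin E2, which starts replication) went from 3.28, 3.61 and 3.74 with 0 genes to 28.9, 43.9 and 45.5 with 5, and was 9.94, 20.7 and 24 with 6. Replication genes were thus already above the 0-gene level in cells just outside the rule, and lower again in cells with the full set.

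Mitosis genes took the other course. Plk1, a mitotic kinase, was at 6.83, 7.72 and 8.37 CPM with 2 rule genes, at 28.9, 42.2 and 40.2 with 5 and at 106, 92.1 and 97.9 with 6. Cdc20, which activates the anaphase-promoting complex, stood at 107, 102 and 90.5 with 6, and Ccnb1 (cyclin B1) at 156, 146 and 112. In each library the level with 6 genes was above the level with 5 for all 3 of these genes. In cells with 6 genes Tmem119 stood at 83.1, 79.0 and 103 and Apoe at 1251, 1783 and 2005, against 209, 217 and 338 and 3106, 4127 and 4284 in cells with 0. Within the depth band Tmem119 was 203, 151 and 183 with 6 genes against 256, 233 and 379.9 with 0, and Apoe 867, 1466 and 2491 against 3109, 3683 and 3911. Median depth was higher at the end of this order, going from 7165.5, 3067 and 4267.5 UMIs with 0 genes to 24998, 18234.5 and 19560.5 with 6. Cells were ordered by genes of the same counts, so these levels are a description with no test.

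**Figure D2:**
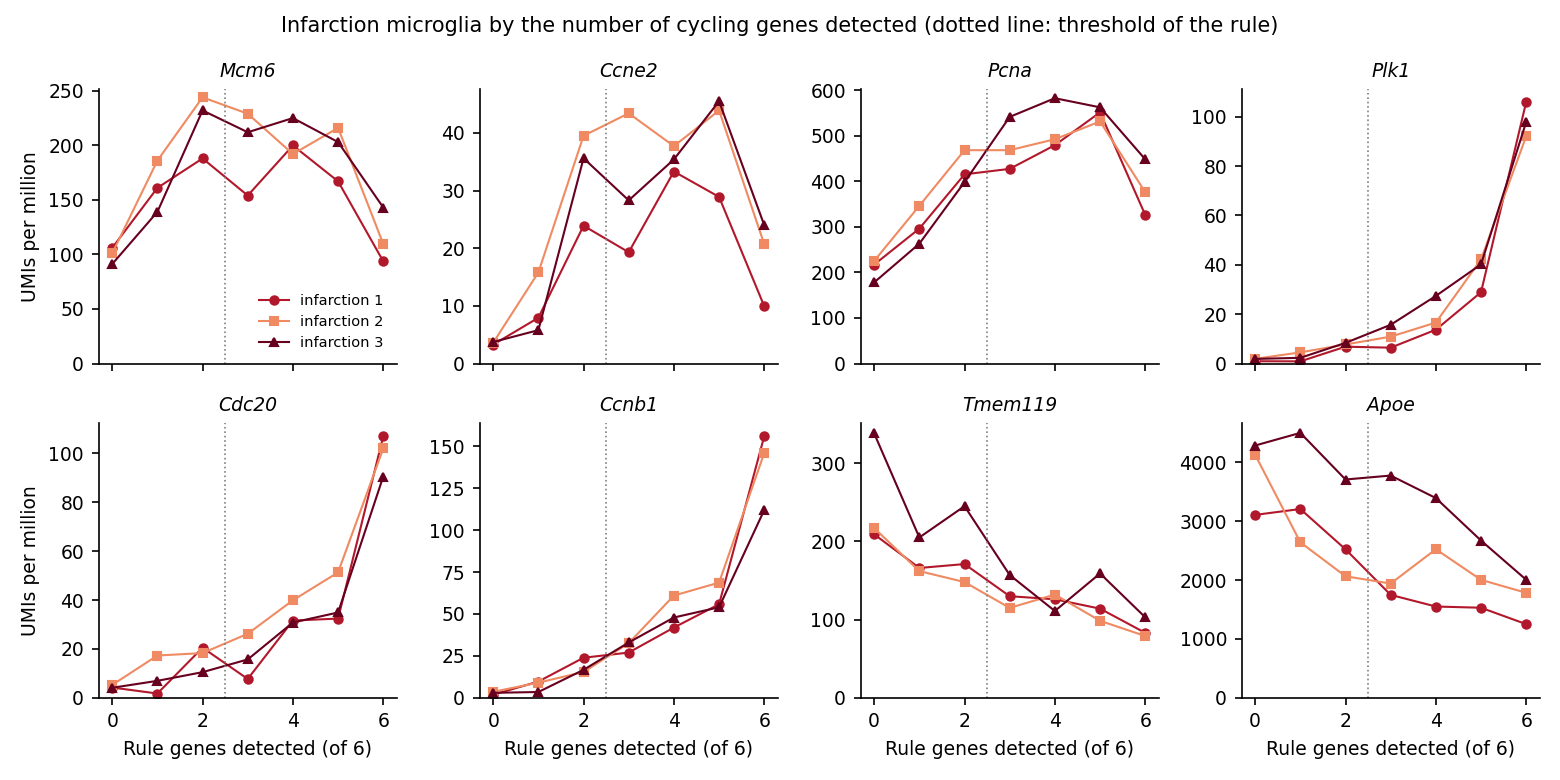
Levels of 8 genes (vertical axes, CPM) in infarction microglia grouped by how many of the 6 rule genes were detected (horizontal axis), 1 line per infarction library. Mcm6, Ccne2 and Pcna are highest between 2 and 5 genes and lower at 6, Plk1, Cdc20 and Ccnb1 are highest at 6, and Tmem119 and Apoe are lowest at 6.

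Members and below-count cells were then compared across all genes on UMIs summed per library and class, with edgeR's quasi-likelihood test and the library as a block. Fold changes are given as log2 with their standard error, and a gene was called at a Benjamini-Hochberg adjusted p under 0.05. The replication, nucleotide, mitosis and histone lists follow from how the cells were chosen and are described without a test. In the mitosis list 130 genes were fitted with a median log2 fold change of 2.51, in the replication list 67 with 0.87, in the histone and chromatin list 25 with 1.0 and in the nucleotide list 21 with 0.47. Hmgb2, a chromatin protein, stood at 1068, 1102 and 921 CPM in cycling cells against 229, 279.9 and 211 in below-count cells. Tubb5, a tubulin of the spindle, stood at 1837, 1769 and 1703 against 961, 1007 and 826, and Dut, which keeps uracil out of new DNA, at 256, 336 and 308 against 122, 155 and 111. Nme1, a nucleotide kinase, stood at 234, 258 and 248 against 224, 272 and 218, where the classes overlap.

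Outside the rule and these lists 9144 genes were tested, of which 1112 (12.2%) were higher and 1144 (12.5%) lower in cycling cells, with a median log2 fold change of -0.02. These shares are the background for every list count over all cells. Without the library block the counts were 459 and 347, and with DESeq2 412 and 419. In the depth band 7.33% of 7136 tested genes were higher and 7.95% lower, and in thinned cells 3.06% and 4.41% of 6009. The 10 named genes with the highest fold changes were Hist1h2ai, Cdkn3, Pclaf, Knstrn, Hist1h2bk, Cdkn2c, Cenpl, Bard1, Fam111a and Mis18a, with log2 fold changes from 3.94 for Hist1h2ai to 1.91 for Mis18a. Most of these serve replication, mitosis or histones, as the 4 lists do, and are not read apart from them. Fam111a, a protease of the replication fork, differed widely between libraries of each class, at 72.4, 626 and 284 CPM in cycling cells, 9.89, 212 and 66.7 in below-count cells and 30.6, 0.279 and 3.59 in sham. The classes overlap, and the adjusted p of edgeR was 0.0425.

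Genes that control entry into the cycle went both ways. Of 17 fitted genes for D cyclins, cyclin-dependent kinases and their inhibitors, 6 were higher and 4 lower (background 12.2% and 12.5%). Cells were chosen by cycling genes, so higher genes of this list may follow from that choice, as in the 4 lists. Cdkn3 and Cdkn2c are among the 10 highest genes named above and are not read apart from those lists. The higher count is thus a description. Cdkn3 had the highest fold of the list, at 62.5, 82.2 and 63.4 CPM against 7.47, 7.51 and 4.48 (log2 3.39 ± 0.13). The inhibitor Cdkn2c was higher too, at 77.3, 74.7 and 83.0 against 13.5, 15.5 and 9.21 (log2 2.56 ± 0.13). Cdk2, the partner of cyclin E, stood at 18.2, 21.6 and 21.3 CPM against 11.6, 13.5 and 10.2 (log2 0.75 ± 0.14, edgeR adjusted p = 0.000274), and Cdk4, the partner of D cyclins, at 21.9, 16.9 and 16.4 against 14.9, 11.3 and 11 (log2 0.55 ± 0.14, adjusted p = 0.00460). Both were singled out after their values were seen, and in the depth band Cdk2 was at 0.95 (adjusted p = 0.00123) and Cdk4 at 0.52 (adjusted p = 0.249). Ccnd2, a D cyclin, was lower, at 13.8, 14.3 and 19.4 against 24.1, 25.4 and 30.9 (log2 -0.79 ± 0.12, adjusted p = 2.84e-05), and so was Btg1, an antiproliferative gene, at 217, 153 and 187 against 331, 239.9 and 315 (log2 -0.69 ± 0.06, adjusted p = 5.95e-09). In both genes the 3 cycling sums lay below all below-count sums. Of 18 genes of p53 signalling and apoptosis 6 were lower and none higher, among them the survival gene Bcl2a1 (426, 374 and 379 against 708, 519 and 601, log2 -0.64 ± 0.06) and the damage-response gene Gadd45a (63.0, 32.3 and 31.6 against 102, 71.3 and 67.0, log2 -0.97 ± 0.09).

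Respiratory chain genes were modestly higher. Of 39 fitted genes encoded in the nucleus 18 were higher (background 12.2%) and none lower, with a median of 0.18. Cox5a, a subunit of cytochrome c oxidase, stood at 554, 642 and 603 CPM against 456, 487 and 435 (log2 0.36 ± 0.06, edgeR adjusted p = 5.04e-05), and Sdhd, a subunit of complex II, at 172, 191 and 178 against 143, 138 and 123 (log2 0.40 ± 0.07). Classes did not overlap for either gene. Within the depth band 8 of the 39 were called, each higher, where 7.33% of all genes outside the cycle lists were higher. In thinned cells 3 were higher, against 3.06% of all genes. Mt-cyb, encoded by the mitochondrial genome, was the 1 of 13 such genes called (log2 0.27 ± 0.05), and 6 of 13 were higher in the depth band.

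Some genes of ribosome biogenesis and translation were higher. Of 30 fitted genes 11 were higher (background 12.2%) and none lower, with a median of 0.15. Npm1, which chaperones ribosome assembly in the nucleolus, stood at 1896, 1785 and 1827 against 1534, 1423 and 1335 (log2 0.34 ± 0.06), and Pa2g4, a ribosome-bound growth regulator, at 156, 155 and 171 against 103, 127 and 96.6 (log2 0.54 ± 0.09). Among band cells 5 were called with a median of 0.02, and in thinned cells none was called, where Npm1 was at -0.02 (adjusted p = 0.953). Of 22 antioxidant and iron genes 6 were higher and 5 lower (background 12.2% and 12.5%). Prdx4, a peroxiredoxin of the secretory pathway, was higher (200.4, 224 and 227 against 145, 147 and 149, log2 0.54 ± 0.07) while Hmox1, which breaks down haem, was lower (242, 184 and 186 against 369, 315 and 279, log2 -0.68 ± 0.06).

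Of 26 genes of cholesterol and fatty acid synthesis 6 were higher and 4 lower (median 0.10, background 12.2% and 12.5%). The lower count is near its background. Fdft1 (squalene synthase) was higher in cycling cells, at 25.4, 29.8 and 27.8 CPM against 12.5, 14.7 and 12.2 (log2 1.05 ± 0.13, edgeR adjusted p = 9.22e-07), and Sqle (squalene epoxidase) at 28.6, 39.4 and 33.5 against 21.2, 18.4 and 17.2 (log2 0.82 ± 0.13). Scd2, a fatty acid desaturase, was lower (log2 -0.72 ± 0.07). In thinned cells no gene of the list was higher (background 3.06%) and 1 of 19 was lower (background 4.41%). Fdft1 was at 0.78 there (adjusted p = 0.121) and Sqle at 0.86 (adjusted p = 0.0737). Of 20 genes of lipid uptake, efflux and droplets 11 were lower and 1 higher (background 12.5% and 12.2%). Abca1, a cholesterol exporter, stood at 34.9, 45.2 and 54.4 against 53.8, 68.4 and 103 (log2 -0.74 ± 0.09), and Plin2, a lipid droplet coat protein, at 89.1, 69.4 and 61.1 against 157, 91.8 and 98.9 (log2 -0.66 ± 0.08). The exception was Msr1, a scavenger receptor singled out after its value was seen, at 103, 108 and 119 against 89.2, 76.3 and 74.0 (log2 0.44 ± 0.09, adjusted p = 0.000551).

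Genes of resting microglia took a smaller share of the transcripts in cycling cells than in below-count cells of the same library. Of 22 fitted homeostatic genes 16 were lower and none higher, with a median of -0.47 (background 12.5% lower). Tmem119, a surface marker of microglia, stood at 101, 98.4 and 123 CPM in cycling cells, 189, 195 and 298 in below-count cells and 762, 927 and 1035 in sham (log2 -1.08 ± 0.07 against below-count cells, edgeR adjusted p = 5.09e-11). All cycling sums lay below all below-count sums, and those below all sham sums. Cst3 (cystatin C, an inhibitor of cathepsins) followed the same order, at 14191, 19221 and 17577, then 23648, 35985 and 40467, then 122063, 126878 and 129133 (log2 -0.97 ± 0.07). The receptor Csf1r was lower by less, at 964, 974 and 1019.7 against 1082, 1266 and 1301 (log2 -0.32 ± 0.06, adjusted p = 0.000146). In the depth band 13 of 21 homeostatic genes were lower (background 7.95%). P2ry12, an ADP receptor, was at -0.05 there (adjusted p = 0.901) against -0.35 ± 0.11 over all cells and -0.21 (adjusted p = 0.225) without library 3.

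Genes of activated, phagocytic microglia were lower as well. Of 29 fitted genes of the disease-associated list 20 were lower and 1 higher, with a median of -0.37. In the depth band 25 of 28 were lower (background 7.95%), with a median of -0.61. Apoe, which carries lipid, stood at 1409, 1976 and 2631 CPM in cycling cells and 3009, 3497 and 4262 in below-count cells (log2 -0.89 ± 0.07, edgeR adjusted p = 2.50e-08). Trem2, a lipid-sensing receptor, stood at 277, 236 and 305 against 408, 363 and 543 (log2 -0.69 ± 0.06), and Igf1, a growth factor, at 83.1, 70 and 68.7 against 115, 116 and 134 (log2 -0.73 ± 0.08). Gpnmb, a glycoprotein of lipid-laden phagocytes, stood at 597, 644 and 729 against 901, 740.5 and 866 (log2 -0.37 ± 0.07, adjusted p = 0.000852, and -0.42 with an adjusted p of 0.273 without infarction library 3). Spp1 (osteopontin) did not pass over all cells, at 8707, 5677 and 8332 against 16676, 6673 and 10540.4 (log2 -0.52 ± 0.20, adjusted p = 0.219), and did in the depth band (log2 -1.28, adjusted p = 1.23e-12) and without library 1 (log2 -0.29, adjusted p = 0.00203) or library 2 (log2 -0.66, adjusted p = 0.000392). Itgax (CD11c) was the gene that was higher, at 65.1, 64.0 and 65.6 against 60.5, 45.5 and 37.4 (log2 0.42 ± 0.11, adjusted p = 0.0115), and was singled out after its value was seen. Its call was lost without library 2 (log2 0.40, adjusted p = 0.0512) or library 3 (log2 0.27, adjusted p = 0.0643), and it was at 0.22 (adjusted p = 0.385) in the depth band and in thinned cells at -0.40 (adjusted p = 0.479).

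**Figure D3:**
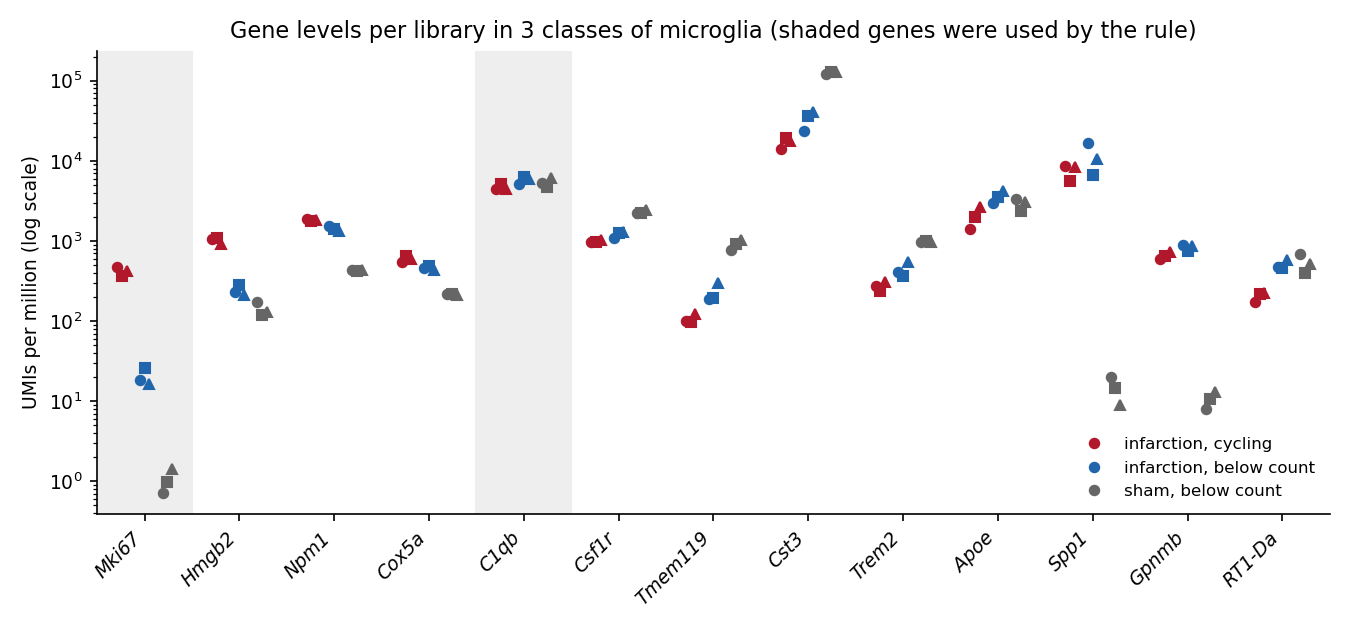
Levels of 13 genes (vertical axis, CPM, log scale) in cycling infarction microglia, below-count infarction microglia and below-count sham microglia, 1 point per library. Shaded genes were used to choose the cells. Tmem119 is lower from class to class without overlap, from sham (762 to 1035) to below-count (189 to 298) to cycling cells (98.4 to 123), whereas Npm1 and Cox5a are highest in cycling cells.

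Lysosomal genes were lower too. Of 30 fitted, 23 were lower and none higher (median -0.37), and 22 of 28 were lower in the depth band (background 7.95%). Ctsl, a lysosomal protease, stood at 901, 961 and 958 CPM against 1183, 1287 and 1379 (log2 -0.47 ± 0.05, edgeR adjusted p = 4.93e-07), and Npc2, which shuttles cholesterol out of lysosomes, at 1543, 1632 and 1738 against 2126, 2331 and 2819 (log2 -0.58 ± 0.06). Of 14 complement and Fc receptor genes 10 were lower and none higher, such as Fcer1g, a signalling chain of Fc receptors, at 1677, 1653 and 1644 against 2258, 2196 and 2372 (log2 -0.48 ± 0.05). Of 23 growth factor receptors and ligands 13 were lower and none higher, with Tgfbr1, a receptor of TGF-beta that keeps microglia in their resting state, at 138, 133 and 168 against 216, 231 and 302 (log2 -0.79 ± 0.06). Of 18 MHC class I genes 9 were lower and 2 higher (background 12.5% and 12.2%), so the higher count is near its background. The named ones, RT1-S3, RT1-A1 and RT1-CE10, are near copies of each other whose reads may be shared.

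**Figure D4:**
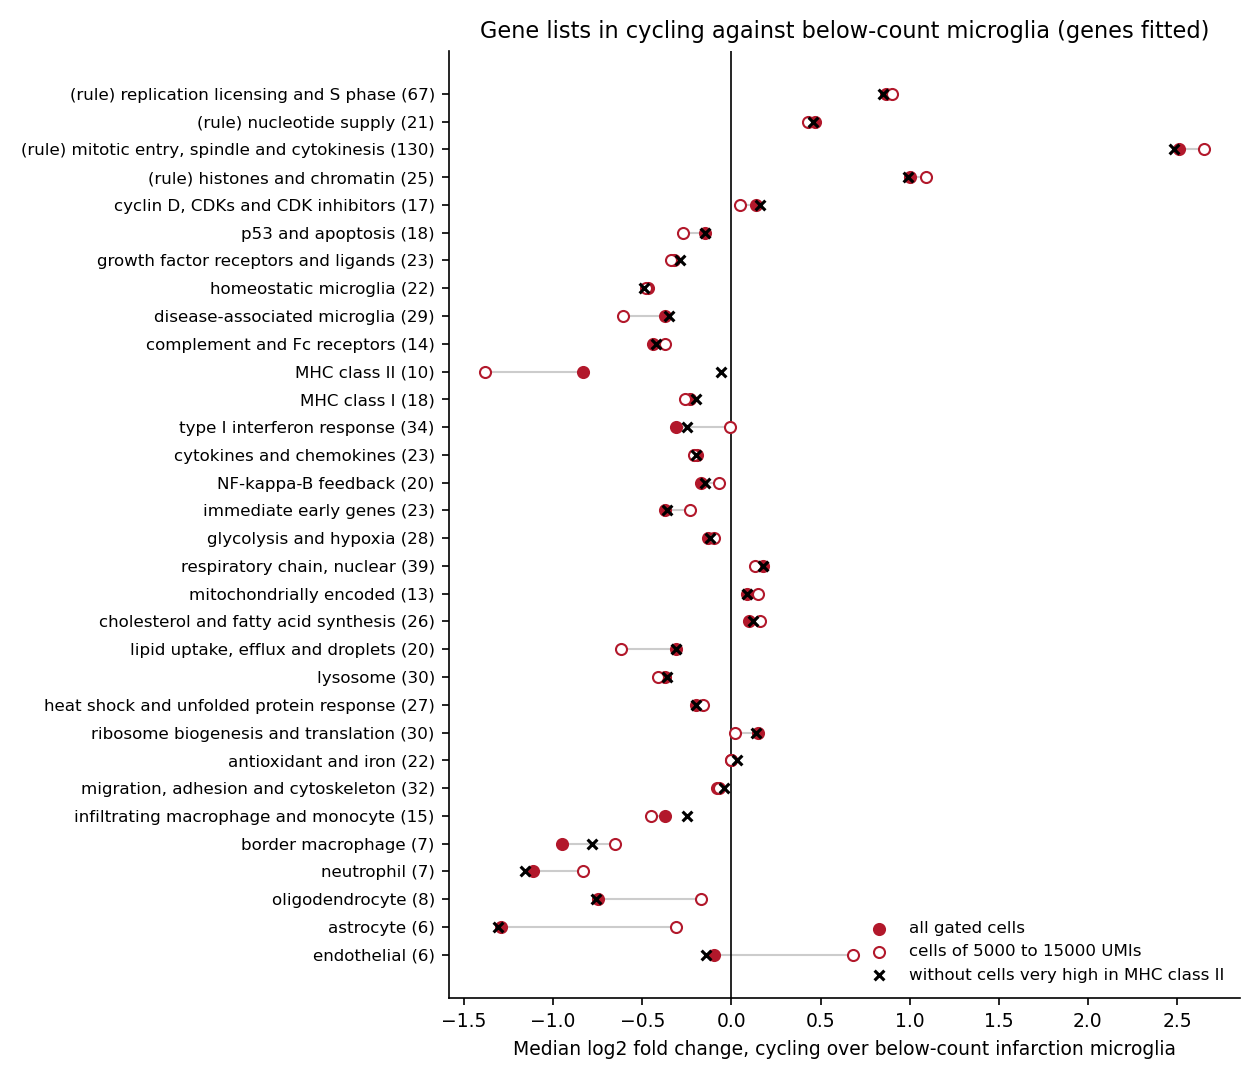
Median log2 fold change of each gene list (horizontal axis) between cycling and below-count infarction microglia, for all gated cells, for cells of 5000 to 15000 UMIs and without cells very high in MHC class II. Numbers in parentheses are genes fitted over all cells, lists with fewer than 6 are not drawn, and lists marked "(rule)" follow from the choice of cells. The lysosome list lies at -0.37 and -0.41 in the first 2 settings, the interferon list moves from -0.31 to -0.01 with depth, and the MHC class II list moves from -0.83 to -0.06 without the cells very high in it.

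MHC class II genes, which present antigen to CD4 T cells, were lower in 6 of 10 and higher in 1, with a median of -0.83. RT1-Da stood at 174, 215 and 225 CPM in cycling cells and 477, 454 and 585 in below-count cells (log2 -1.32 ± 0.07, edgeR adjusted p = 1.54e-12), with RT1-Db1 (log2 -1.57 ± 0.09), RT1-Ba (-1.48 ± 0.10) and RT1-Bb (-1.42 ± 0.08) also lower. All 4 calls were lost under other gates: with at least 80 C1q UMIs per 10000 RT1-Da was at -1.24 (adjusted p = 0.0715), with a microglial identity UMI required at -1.05 (adjusted p = 0.101) and with none of the border macrophage genes at -0.45 (adjusted p = 0.138). Under that last gate RT1-Db1 was at -0.70 (adjusted p = 0.346). These RT1 genes have related copies, so reads may be shared among them. The difference lay in few cells. Below-count cells with at least 100 UMIs of these 4 genes per 10000 numbered 13, 24 and 19, against 3, 2 and 2 cycling cells. Those 56 cells held 3.72% of the below-count UMIs, 72.9% of the RT1-Db1 UMIs, 30.5% of the UMIs of the border macrophage gene Mrc1 and 1.72% of those of Tmem119. Whether they are microglia was not tested.

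Leaving these cells out of both arms brought the 4 genes together to 360.4, 417 and 479 CPM in cycling cells and 387, 326 and 616 in below-count cells, where the classes overlap. RT1-Da was then at 0.01 (edgeR adjusted p = 0.973) and RT1-Db1 at -0.05 (adjusted p = 0.787), in a setting added after seeing the data and defined by these genes, and the median of the list was -0.06, with 1 gene lower and 1 higher. The invariant chain Cd74 had 56.7% of its below-count UMIs in the same cells. Clec10a, a lectin of dendritic cells and some macrophages, had 58.6% there, and its log2 fold change went from -2.21 ± 0.16 to -1.15 (adjusted p = 0.338). Clec10a also lost its call at the stricter C1q gate (log2 -1.82, adjusted p = 0.235). Without these cells 22 of 30 lysosomal genes and 16 of 22 homeostatic genes were lower.

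**Figure D5:**
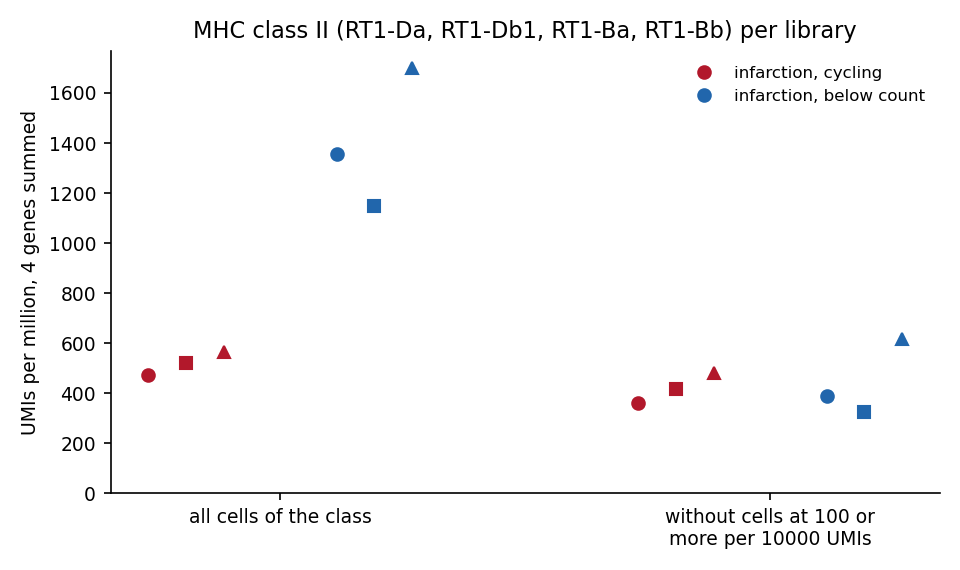
Summed level of RT1-Da, RT1-Db1, RT1-Ba and RT1-Bb (vertical axis, CPM) in cycling and below-count infarction microglia, 1 point per library, with all cells and without cells at 100 or more such UMIs per 10000. The below-count libraries lie at 1147 to 1700.2 with all cells and at 326 to 616 without them, and the cycling libraries at 474 to 563 and 360.4 to 479.

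Interferon-response genes were lower over all cells, and fewer of them were in the depth band. Of 34 interferon genes 13 were lower and 1 higher, with Ifit3 at 29.3, 11.9 and 27.6 CPM against 58.6, 29.3 and 71.7 (log2 -1.22 ± 0.11, edgeR adjusted p = 3.64e-09) and Isg15 at 35.9, 23.0 and 43.6 against 63.2, 38.2 and 83.9 (log2 -0.86 ± 0.09). Among cells of the depth band 1 was lower and the median was -0.01, with Ifit3 at -0.32 (adjusted p = 0.159) and Isg15 at -0.09 (adjusted p = 0.769). In thinned cells Ifit3 was at -1.27 (adjusted p = 8.96e-05) and 3 genes of the list were lower, so the 2 settings differ. Of 23 immediate early genes, which respond within minutes to stimulation or to tissue handling, 18 were lower and 1 higher. Jund stood at 256, 217 and 262 against 342, 315 and 435 (log2 -0.58 ± 0.06). Of the immediate early genes 10 of 22 were lower in the depth band (background 7.95%) and 2 of 21 in thinned cells (background 4.41%). Heat shock and unfolded protein genes were lower in 15 of 27 and higher in 2 (background 12.5% and 12.2%). The inducible chaperone Hspa1a stood at 302, 275 and 289 against 475, 514 and 616 (log2 -0.90 ± 0.07).

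Of 23 fitted cytokine genes 9 were lower, 1 was higher and 13 were not called (background 12.5% lower and 12.2% higher). In the depth band 6 of 21 were lower and 2 higher, and in thinned cells 8 of 21 were lower. Il1rn, the antagonist of the interleukin-1 receptor, stood at 36.3, 26.2 and 20.9 CPM against 105, 45.8 and 62.5 (log2 -1.34 ± 0.13, edgeR adjusted p = 5.89e-06, and -1.33 in the depth band, with the call lost at no more than 10% mitochondrial UMIs, log2 -1.44 and adjusted p = 0.0587). Ccl4, a chemokine, stood at 7668, 3552 and 4062 against 8668, 4353 and 5376 (log2 -0.31 ± 0.06), lower in 3 of 3 libraries though the classes overlap. Cytoskeletal Actg1 was higher (3075, 3015 and 3004 against 2278, 2218 and 2214, log2 0.42 ± 0.05), as was the protease inhibitor Timp1 (169, 188 and 169 against 146, 125 and 120.0, log2 0.41 ± 0.08).

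The 10 named genes with the lowest fold changes were Slfn5, Clec10a, Tmem150a, Lrg1, RT1-Db1, Il1r2, Gfap, RT1-Ba, RT1-Bb and Ccl6. Ccl6, a chemokine, was at -1.37 ± 0.21 and lost its call without library 3 (log2 -1.21, adjusted p = 0.115). Slfn5, a Schlafen family gene, stood at 5.65, 3.31 and 7.80 CPM in cycling cells, 27.2, 23.0 and 31.1 in below-count cells and 81.6, 52.1 and 49.7 in sham (log2 -2.32 ± 0.16 against below-count cells, edgeR adjusted p = 7.67e-11, and -1.75 in the depth band). Tmem150a, a membrane protein, stood at 3.81, 6.45 and 5.90 against 21.9, 24.7 and 20.9 (log2 -2.12 ± 0.17, and -2.28 in the band). Others of the 10 are genes of other cells. Il1r2 and Lrg1 are abundant in neutrophils and had a UMI in 5.50% and 4.04% of below-count cells, and Gfap marks astrocytes and was at -0.31 (adjusted p = 0.427) in the depth band.

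Markers of several other cell types were also lower in cycling cells. The neutrophil list (15 genes, 4 of 7 fitted lower) summed to 92.1 to 219.6 CPM in cycling sums and 343 to 429.6 in below-count sums, with Ngp, Ltf and Mpo at 0 in cycling cells. The astrocyte list (9 genes, 5 of 6 fitted lower) summed to 117 to 159 and 185 to 242, and the oligodendrocyte list (12 genes, 5 of 8 lower) to 182 to 322 and 199 to 558, neither with a gene at 0. The border macrophage list (10 genes, 5 of 7 lower) summed to 145 to 155 and 222 to 297, with Cd163 and Cd209f at 0. The rule drops cells with 2 or more border macrophage genes, more strictly in deep cells. The level of this list is thus tied to the choice of cells. The infiltrating macrophage and monocyte list (19 genes, 6 of 15 lower, 1 higher) summed to 2909.7 to 3505 and 3688 to 4145, with Ly6c at 0. In the depth band 4 of 5 neutrophil, 1 of 3 astrocyte, 1 of 4 oligodendrocyte and 2 of 4 border macrophage genes were lower. The part of other cells or their RNA in the lower lists was not tested.

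Because cycling cells held more UMIs, a lower share need not be a lower number per cell. They held 1.99, 2.77 and 2.42 times the mean UMIs of below-count cells in the 3 libraries. Tmem119 averaged 2.12, 1.45 and 1.89 UMIs per cycling cell against 1.99, 1.04 and 1.89 per below-count cell, a ratio of 1.06, 1.40 and 0.998. For Cst3 the ratio was 1.19, 1.48 and 1.05, for Trem2 1.35, 1.8 and 1.36, for Apoe 0.931, 1.57 and 1.5, for RT1-Da 0.727, 1.31 and 0.930 and for Csf1r 1.77, 2.13 and 1.90. Npm1 and Cox5a exceeded the ratio of all UMIs, at 2.46, 3.48 and 3.32 and 2.42, 3.66 and 3.36. More RNA per cell and better capture of a cell cannot be told apart here.

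Finally, cycling cells were set beside sham microglia, which differ by injury as well as by cycling. These folds share the cycling sums with the comparison above. Outside the rule and cycle lists 10078 genes were tested, of which 3142 (31.2%) were higher and 3439 (34.1%) lower by edgeR. The 5 named genes with the highest folds were Spp1, Pclaf, Slpi, Hist1h2bk and Sdc1. Sdc1, a heparan sulfate proteoglycan, stood at 105, 106 and 109 CPM in cycling cells, 111, 71.0 and 77.0 in below-count cells and 1.8, 1.54 and 1.08 in sham (log2 6.34 ± 0.15 against sham, adjusted p = 5.69e-10). Spp1 stood at 19.8, 14.8 and 8.97 in sham (log2 9.19 ± 0.40, adjusted p = 2.23e-05) and Gpnmb at 7.91, 10.6 and 13.1 (log2 5.92 ± 0.16). UMIs of both genes were also found in T cells and in cells with neutrophil genes, as given above.

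Several lists stood apart from sham, where the background was 31.2% higher and 34.1% lower. All 30 fitted genes of ribosome biogenesis were higher (median 1.52), with Npm1 at 429, 419 and 428 in sham against 1896, 1785 and 1827 in cycling cells (log2 2.16 ± 0.06, edgeR adjusted p = 8.58e-10), and so were 36 of 39 nuclear respiratory chain genes. Of 23 homeostatic genes 21 were lower and 1 higher (median -1.86), with Tmem119 at -3.03 ± 0.13 and Csf1r at -1.16 ± 0.06. Of 29 disease-associated genes 18 were higher and 6 lower, and of 15 infiltrating macrophage and monocyte genes 11 were higher and 1 lower (median 1.86). Apoe did not differ from sham by the test (3316, 2391 and 3052 in sham, log2 -0.49 ± 0.27, adjusted p = 0.164), but was lower without infarction library 3 (log2 -0.71, adjusted p = 0.0336).

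Among the genes lowest against sham were ones that are not microglial. Ttr marks choroid plexus, and Pln, Actg2 and Cnn1 mark smooth muscle. Ttr stood at 1814, 5808 and 389 CPM in sham microglia and 0, 0.698 and 0.211 in cycling cells. Pln, Actg2 and Cnn1 had 0 UMIs in the cycling sums and were at least 856-fold, 415-fold and 345-fold lower, taking a floor of 3 UMIs over the 3 sums together. All 8 fitted mural and fibroblast genes were lower, with summed levels of 2745 to 4419 in sham microglia and 2.58 to 4.43 in cycling cells, where Rgs5 and Lum were at 0. What free RNA of those cells contributes to other genes that were lower against sham was not tested.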

How the data were processed

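Raw UMI counts per gene and barcode from 3 sham and 3 infarction libraries (10x 3' chemistry) were analysed. The authors deposited these counts. The submitters' processing notes list CASAVA 1.8, Cell Ranger 3.1.0 and Seurat 2.3.4, without their roles. Which build and gene models the reads were mapped to is not given in the sources used here. The lowest deposited barcode held 500 UMIs. Totals ran from 56416475 to 69924334 UMIs per library, and the summed classes held 4015406 to 8144809 UMIs in infarction and 2780794 to 11143118 in sham.

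Cells were chosen by the rule, and the members and gene lists were chosen with earlier results of these data known. Of 44011 barcodes 38685 were kept. UMIs were summed per library and class. The 13 rule genes stayed in library sizes and left the fit. Sums were tested with edgeR 4.0.16 (TMM, filterByExpr, robust quasi-likelihood fit, Benjamini-Hochberg over all genes fitted), with the library as a block between classes of the same libraries and without a block against sham. DESeq2 1.42.0 was an alternative. Levels are CPM, UMIs per 1000000 summed UMIs, and standard errors are the fold change over the square root of the F statistic. Doublets were scored with Scrublet in scanpy 1.11.5 and kept, except in the alternative without scores above 0.25. Free RNA was gauged in infarction cells under the C1q gate with at least 2 of Csf3r, Cxcr2 and Mmp8 or of Cd3d, Cd3e and Cd3g. The scripts were tested on simulated counts.

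Genes named from the class comparison are the 10 highest and 10 lowest called genes outside the cycle lists with at least 20 CPM in the higher class and the same direction in 3 of 3 libraries, up to 4 called genes of smallest p per list, the most abundant genes of each cycle list and the fixed markers. From the sham comparison they are the 5 highest and 5 lowest with no overlap. Unnamed gene models were left out, and some genes that the rule names are not reported here. Other gates, depths, filters and tools, and each library left out in turn, were alternatives. Replicate numbers of sham and infarction libraries were not used as pairs in the main fit. Deviations of same-numbered libraries correlated at 0.029, 0.084 and 0.036, and those of other pairs at -0.043 to 0.007. With 3 libraries per group these values do not decide whether the numbers pair the samples. Replicate libraries differed beyond sampling noise (chi-square per degree of freedom 4.81 to 11.1). Promoters came from RefSeq's table for GRCr8.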

Additional observations from a re-analysis of the deposited data

How the results depend on the processing

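Between cycling and below-count cells, the main counts of 1112 higher and 1144 lower genes moved by more than 1.5 times under 4 alternatives: 412 and 419 with DESeq2, 459 and 347 with no replicate block, 523 and 567 in cells of 5000 to 15000 UMIs, and 184 and 265 in thinned cells. In thinned cells fewer UMIs and fewer genes were tested. Members that missed the count could sit in the lower arm, and cells dropped by the gate on full counts could enter. Of the main calls, 1001 of 1014 higher and 989 of 1023 lower genes that could be refitted in the depth band had the same sign, and 462 and 458 were called. Leaving out 1 library gave 749 to 982 higher and 803 to 930 lower genes. Against sham, 3142 and 3439 became 1893 and 1979 in the depth band and 1254 and 1312 in thinned cells, 3120 and 3436 with a replicate block, and 2945 to 3113 and 3154 to 3397 with 1 library left out. The cause of the other moves was not tested.

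The difference in cycling share stayed positive in every alternative run, at 15.8 to 42.5 percentage points, and at 27.9 to 40.7 with 1 library left out. Named genes reversed 4 times: Gfap at 0.23, Npm1 at -0.02 and Itgax at -0.40 in thinned cells, and RT1-Da at 0.01 without the cells very high in MHC class II, an alternative added after seeing the data. Of the named genes called in the class comparison, 24 of 80 lost their call with no replicate block, 25 of the 76 fitted in thinned cells and 11 of the 78 fitted in the depth band. Precision is limited by 3 libraries per group and, for genes of a few CPM, by depth.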
